A study of Mus musculus with 6 samples.

Results

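The collagen genes of the mouse were followed in kidney RNA from 6 samples, 3 of wild-type mice and 3 of Hspa8 knockout mice. A gene was taken as a member when its symbol consisted of Col, a type number, the letter a and a chain number, which held for 44 of the 34714 genes in the table. They were grouped by type into 6 fibrillar genes (Col1, Col3 and Col5), 8 basement membrane genes (Col4, Col15 and Col18) and 30 genes of other types. The grouping used the type number alone and no measured value. Mice of both groups were 8 weeks old and ate normal chow. The wild-type samples carry C57 in their titles, and the knockout titles name no strain. The mice that the study obtained included C57BL/6J, Hspa8flox/flox on C57BL/6J and Cdh16-Cre, in which a promoter of kidney tubule epithelium drives the recombinase. The labels do not say which cross gave these knockout samples. A deletion driven that way would leave the gene in fibroblasts, vessels and podocytes. Hspa8 encodes HSC70, the constitutive cytosolic chaperone of the HSP70 family.

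Collagens are trimers wound from chains whose helical part carries glycine at a regular interval. Types I, III and V assemble into the banded fibrils of the interstitium, which kidney fibroblasts and pericytes lay down and which build up in fibrosis. Type IV forms the sheet of basement membranes in distinct trimers. The one of α1 and α2 chains is laid down widely, under vessels and in the mesangium, while the one of α3, α4 and α5 chains makes up the mature glomerular basement membrane. Loss of an α3, α4 or α5 chain causes Alport syndrome. Types XV and XVIII are proteoglycan collagens of basement membrane zones, and type XVIII is the source of endostatin.

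Several of these genes are paired on the chromosome. Start regions are shown for Col4a1 with Col4a2, for Col4a4 with Col4a3, and for Col1a2, Col3a1 and Col18a1. Whether these sequences bear on how the genes varied between libraries was not tested. Sequences are from RefSeq promoters on GRCm38.p6, whose table held 35 of the 44 members and 16 of the 21 members tested. Col1a1 and Col14a1 were not among them. Col4a1 and Col4a2 lie head to head on opposite strands, and the starts of the promoter table overlap by the 22 bases of chr8:11312805-11312826, printed on the plus strand. The exons of both genes in GENCODE share the same 22 bases, whereas the whole Col4a1 gene in RefSeq reaches further, to 11312889. Col4a4 and Col4a3 also lie head to head, with 71 bases between their starts (chr1:82586850-82586920, plus strand), although RefSeq also lists a longer Col4a4 gene that reaches past the start of Col4a3. For Col1a2 (chr6:4505498-4505617, plus strand), Col3a1 (chr1:45311418-45311537, plus strand) and Col18a1 (chr10:77166531-77166650, minus strand) the 120 bases before the start are given on the strand of the gene. Capitals mark the motifs searched on both strands, namely the TATA motif read as TATAA, the motif known as the CAAT box and read as CCAAT, and the GC box read as GGGCGG.
Col4a1 and Col4a2: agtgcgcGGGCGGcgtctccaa
Col4a4 to Col4a3: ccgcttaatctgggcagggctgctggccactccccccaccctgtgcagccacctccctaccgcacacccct
Col1a2: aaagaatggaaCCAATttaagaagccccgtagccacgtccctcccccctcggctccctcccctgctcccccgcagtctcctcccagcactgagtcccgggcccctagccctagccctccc
Col3a1: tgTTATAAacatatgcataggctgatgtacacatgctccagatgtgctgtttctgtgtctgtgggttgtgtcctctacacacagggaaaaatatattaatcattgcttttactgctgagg
Col18a1: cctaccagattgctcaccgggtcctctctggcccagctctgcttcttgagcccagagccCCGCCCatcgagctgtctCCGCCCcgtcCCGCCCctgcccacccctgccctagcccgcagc
Col1a2 held a CCAAT from 109 to 105 bases before its start. Col3a1 held TTATAA, in which TATAA reads on both strands and the matches overlap, from 118 to 113 bases before its start. Col18a1 held 3 GC boxes, all read on the reverse strand, and the overlap of Col4a1 and Col4a2 held 1. No match to these 3 motifs was found between Col4a4 and Col4a3. In the 250 bases before the start, a GC box was found in 10 of the 16 tested members in the table, CCAAT in 6 and TATAA in 1. Of all 27025 promoters of the same length in the table, 32.9% held a GC box, 34.5% CCAAT and 23.5% TATAA. Of the 9809 promoters of genes tested here, 58.5% held a GC box, 36.0% CCAAT and 12.3% TATAA.

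Levels are in FPKM, which divides the fragments of a gene by its transcript length and by the size of the library, so genes are compared per length. FPKM keep no read totals, so sequencing depth is unknown. Library sums lay between 381586 and 417123 FPKM. Where 3 values are given for a group, they are those of replicates 1, 2 and 3 in that order. Hspa8 stood at 1058 to 1318 FPKM among wild-type against 650 to 781 among knockout kidneys, without overlap. Markers of tubules, the bulk of the organ, summed to 3691 to 3781 FPKM among wild-type against 3623 to 3844 among knockout kidneys. Most of this sum came from Slc34a1 and Umod, picked after their values were seen, which moved in opposite ways between libraries. Slc34a1 had 1843, 1806 and 1601 FPKM across wild-type libraries against 1942, 1474 and 1702 across knockout libraries. Umod had 870, 952 and 1187 FPKM against 762, 1272 and 1061. The 3 samples of a group are not said to come from separate animals, so p-values rest on a spread between samples that could be technical alone. On the first principal component, which held 47.5% of the variance, wild-type replicate 3 and then knockout replicate 2 stood highest, at 23.0 and 10.6, and the other 4 libraries lay between -13.4 and 0.212.

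Collagen transcripts of the kidney were mostly those of basement membranes in both genotypes. The 44 genes summed to 292, 270.5 and 296 FPKM across wild-type libraries against 261.5, 258 and 253 across knockout libraries, so the groups did not overlap. As a share of the library sum this was 0.0718%, 0.0670% and 0.0710% against 0.0665%, 0.0619% and 0.0662%. The shares did not overlap either, but by a narrow gap. Basement membrane genes made up 66.4% to 73.4% of the collagen sum in wild-type and 72.2% to 74.6% in knockout kidneys. The 5 type IV chains from Col4a1 to Col4a5 alone gave 53.5% to 61.3% of it in wild-type and 58.9% to 62.5% in knockout kidneys. Fibrillar genes gave 11% to 14.1% in wild-type and 9.49% to 12.2% in knockout kidneys. The sums of the classes were compared next, as levels with no test. The fibrillar sum was 32.0, 33.9 and 41.7 FPKM across wild-type libraries against 24.8, 31.5 and 25.4 across knockout libraries. Its knockout mean was 75.9% of the wild-type mean. The basement membrane sum was 215, 189 and 197 FPKM across wild-type libraries against 193, 186 and 189 across knockout libraries, with a knockout mean at 94.5% of wild-type and overlapping groups. The other types summed to 45.8, 47.2 and 57.7 FPKM across wild-type libraries against 44.1, 40.3 and 38.8 across knockout libraries, with a knockout mean at 81.7% of wild-type.

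**Figure D1:**
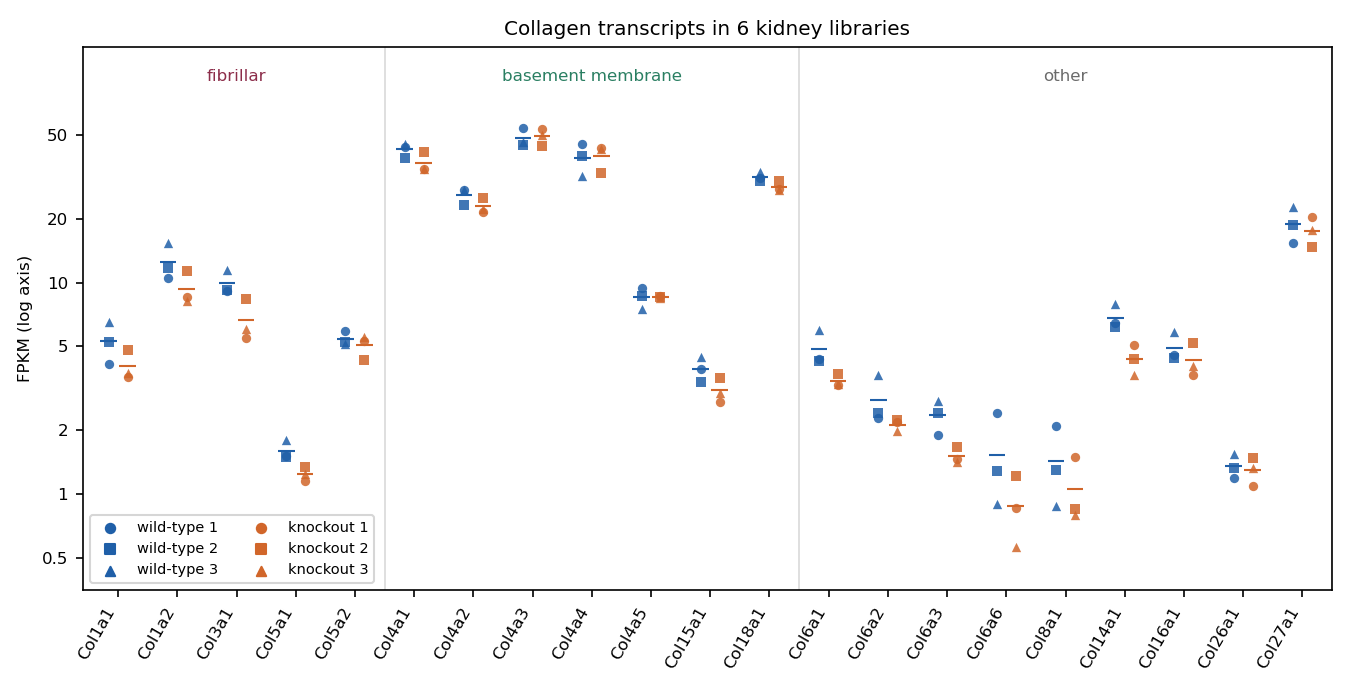
FPKM on a log axis of the 21 collagen genes with a mean of at least 1 FPKM, with 1 point per library, blue for wild-type and orange for knockout, and short lines at the group means. Col4a1 to Col4a4, Col18a1 and Col27a1 are the most abundant members, and wild-type replicate 3, the blue triangle, is the highest point for 15 of the 21 genes.

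The question of the comparison was whether collagen transcripts differ between wild-type and Hspa8 knockout kidneys. Each gene was tested with limma on log2(FPKM + 1), with Benjamini-Hochberg adjustment over the 12174 genes with a mean of at least 1 FPKM over the 6 libraries, and 21 collagen genes reached that mean. None of the 21 passed an adjusted p of 0.05, and neither did any of the 12174 genes (0%). Hspa8 itself, at a log2 fold change of -0.70 and rank 4 by p, had a limma adjusted p of 0.866. The fit thus did not call the deleted gene either, so the lack of calls does not show that collagen genes are unchanged. Adjusted p of the collagen genes ran from 0.866 to 0.998. At an unadjusted p under 0.05, 5 collagen genes were lower in the knockout, against 4.21% of all tested genes, and 0 were higher, against 0.953%. These 5 were Col14a1, Col3a1, Col6a3, Col6a1 and Col1a2. Log2 fold changes of 18 of the 21 were below 0, against 64.9% of all genes. The share of all genes below 0 was 50.2% with library sums equalised, 46.5% with library medians equalised and 49.2% with quantiles equalised, while 18, 18 and 17 collagen genes were below 0. For 7 collagen genes every knockout value lay below every wild-type value, against 8.57% of all genes, and for 0 every knockout value lay above, against 2.01%.

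The median log2 fold change, knockout minus wild-type, was -0.21 over the 21 collagen genes, beside -0.04 over all tested genes. It was -0.31 for the 5 tested fibrillar genes, -0.15 for the 7 basement membrane genes and -0.26 for the 9 other genes. All 5 fibrillar and all 9 other genes lay below 0, and 4 of the 7 basement membrane genes did. Differences on this scale understate those of low genes, since 1 is added to each value. The fibrillar median was -0.18 without wild-type replicate 3, where that of the other types was -0.26, and -0.45 without wild-type replicate 1. Without knockout replicate 1 the medians were -0.25 for fibrillar genes and -0.37 for the other types. With types 2, 11, 24 and 27 counted as fibrillar, they were -0.26 and -0.32. With 0.1 added to each value in place of 1, the fibrillar and other medians were -0.374 and -0.379. The order of the fibrillar and other classes thus depended on the grouping, on the libraries used and on the value added.

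**Figure D2:**
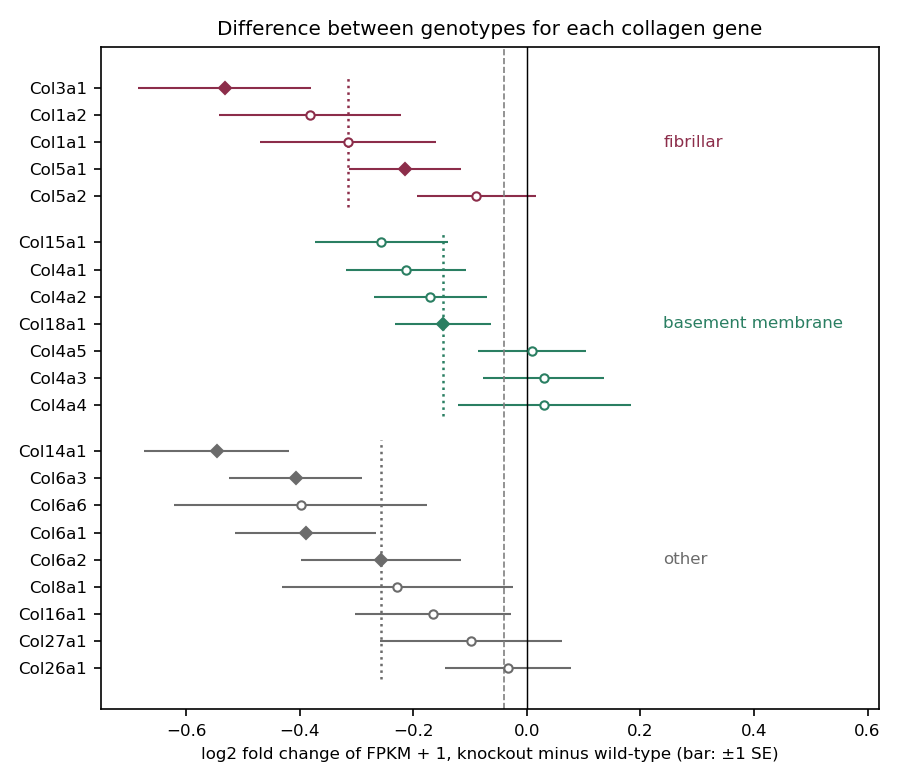
Log2 fold change of FPKM + 1, knockout minus wild-type, with a bar of 1 standard error each way, for the 21 tested collagen genes by class. Filled diamonds mark the 7 genes whose groups do not overlap, dotted lines the class medians of -0.31, -0.15 and -0.26, and the dashed line the median of all tested genes at -0.04. Col4a3, Col4a4 and Col4a5 lie just above 0 and all others below it.

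Among fibrillar collagens, Col3a1 and both chains of type I had the lowest knockout levels relative to wild-type. Col3a1 (chromosome 1, 45311538 to 45349706), the chain of the type III homotrimer of pliable interstitial fibrils, had 9.10, 9.24 and 11.5 FPKM across wild-type libraries against 5.48, 8.37 and 6.03 across knockout libraries. Every knockout library lay below every wild-type library, by the least in replicate 2. The means were 9.94 ± 1.34 and 6.63 ± 1.54 FPKM (SD, n = 3). The log2 fold change was -0.53 (SE 0.152), and the limma adjusted p was 0.866. An exact two-sided permutation test over the samples gave p = 0.1, the smallest that 3 against 3 allow. Col1a2 (chromosome 6, 4505618 to 4541543), the α2 chain of type I, had 10.5, 11.7 and 15.4 FPKM across wild-type libraries against 8.56, 11.4 and 8.18 across knockout libraries. Knockout replicate 2 lay between wild-type replicates 1 and 2, so the groups overlapped, and the log2 fold change was -0.38 (SE 0.161). Col1a1 (chromosome 11, 94936224 to 94953042), the α1 chain of type I, had 4.13, 5.24 and 6.54 FPKM across wild-type libraries against 3.57, 4.79 and 3.75 across knockout libraries. It had the same order of libraries as Col1a2 apart from the order of knockout replicates 1 and 3, with a log2 fold change of -0.31. The ratio of Col1a2 to Col1a1 held between 2.18 and 2.54 in all 6 libraries. The Col1a2 level was thus above the Col1a1 level per length in each library, although the type I trimer holds more α1 than α2 chains.

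Type V collagen starts type I fibrils and sets their width. Col5a1 (chromosome 2, 27886381 to 28039510) had 1.52, 1.49 and 1.80 FPKM across wild-type libraries against 1.15, 1.34 and 1.24 across knockout libraries. Its groups did not overlap, and its log2 fold change was -0.21 (SE 0.0984, limma adjusted p = 0.973). Col5a2 (chromosome 1, 45374331 to 45503282), which lies beside Col3a1 on the same chromosome, had 5.88, 5.23 and 5.15 FPKM across wild-type libraries against 5.32, 4.32 and 5.51 across knockout libraries. Unlike its neighbour it was not highest in wild-type replicate 3, its groups overlapped, and its log2 fold change was -0.09 (SE 0.105). Col5a3 was the member just under the limit for testing, with a mean of 0.996 FPKM. It had 0.893, 1.03 and 1.29 FPKM across wild-type libraries against 0.754, 1.33 and 0.677 across knockout libraries, and knockout replicate 2 was the highest library. The tested member with the lowest mean was Col6a6 at 1.21 FPKM.

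Type IV genes are taken by trimer, first the widespread one. Col4a1 (chromosome 8, 11198423 to 11312889) had 43.9, 38.9 and 45.3 FPKM across wild-type libraries against 34.6, 41.3 and 34.4 across knockout libraries. Its partner Col4a2 (chromosome 8, 11312805 to 11449287) had 27.3, 23.4 and 27.4 FPKM across wild-type libraries against 21.6, 25.1 and 22.3 across knockout libraries. Both were high in wild-type replicates 1 and 3 and low in knockout replicates 1 and 3, and for both knockout replicate 2 exceeded wild-type replicate 2. Their log2 fold changes were -0.21 (SE 0.105) and -0.17 (SE 0.0992), with limma adjusted p of 0.973 and 0.989. The ratio of Col4a1 to Col4a2 stayed between 1.55 and 1.66 across the 6 libraries, the highest being 1.08 times the lowest.

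The chains of the glomerular trimer did not follow that order. Col4a3 (chromosome 1, 82586921 to 82722059) was the most abundant collagen transcript in each of the 6 libraries, at 53.6, 44.9 and 46.3 FPKM across wild-type libraries against 53.5, 44.3 and 50.1 across knockout libraries. Col4a4 (chromosome 1, 82448419 to 82587034) had 45.2, 39.6 and 31.9 FPKM across wild-type libraries against 43.3, 32.9 and 42.8 across knockout libraries. Col4a5 (chromosome X, 141475370 to 141689236) had 9.43, 8.62 and 7.47 FPKM across wild-type libraries against 8.64, 8.53 and 8.43 across knockout libraries. The groups of all 3 genes overlapped, and wild-type replicate 3, high for Col4a1 and Col4a2, was the lowest library for Col4a4 and Col4a5. Log2 fold changes were 0.03 for Col4a3, 0.03 for Col4a4 and 0.01 for Col4a5, with standard errors of 0.107, 0.153 and 0.0958. Their signs turned without wild-type replicate 3 for Col4a4 (-0.10) and Col4a5 (-0.07), and without wild-type replicate 2 for Col4a3 (-0.02). They also turned without knockout replicate 1 for Col4a3 (-0.03) and Col4a4 (-0.04), and without knockout replicate 3 for Col4a4 (-0.03).

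The ratio of Col4a3 to Col4a4 ran from 1.13 to 1.45 over the 6 libraries, wider than that of Col4a1 to Col4a2, and was highest in wild-type replicate 3 and then knockout replicate 2. Of the exon bases of Col4a3, 5.65% are shared with a gene on the other strand, C430014B12Rik, of those of Col5a1 2.5% with other-strand genes and of those of Col3a1 1.44% with the same-strand gene Gm47302, and the sources used here do not say whether counting used strand. Summed, Col4a1 and Col4a2 gave 71.2, 62.3 and 72.7 FPKM across wild-type libraries against 56.2, 66.4 and 56.6 across knockout libraries. The sum of Col4a3, Col4a4 and Col4a5 was 108, 93.1 and 85.7 FPKM across wild-type libraries against 105, 85.7 and 101 across knockout libraries. The first sum divided by the second was 0.658, 0.669 and 0.849 across wild-type libraries against 0.533, 0.774 and 0.559 across knockout libraries. The ratio was thus highest in wild-type replicate 3 and next in knockout replicate 2, which also led the first principal component, and lowest in the other 2 knockout libraries. Col4a6, which pairs with α5 chains in Bowman's capsule and the distal tubule, had 0.294 to 0.510 FPKM in the 6 libraries and was not tested.

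**Figure D3:**
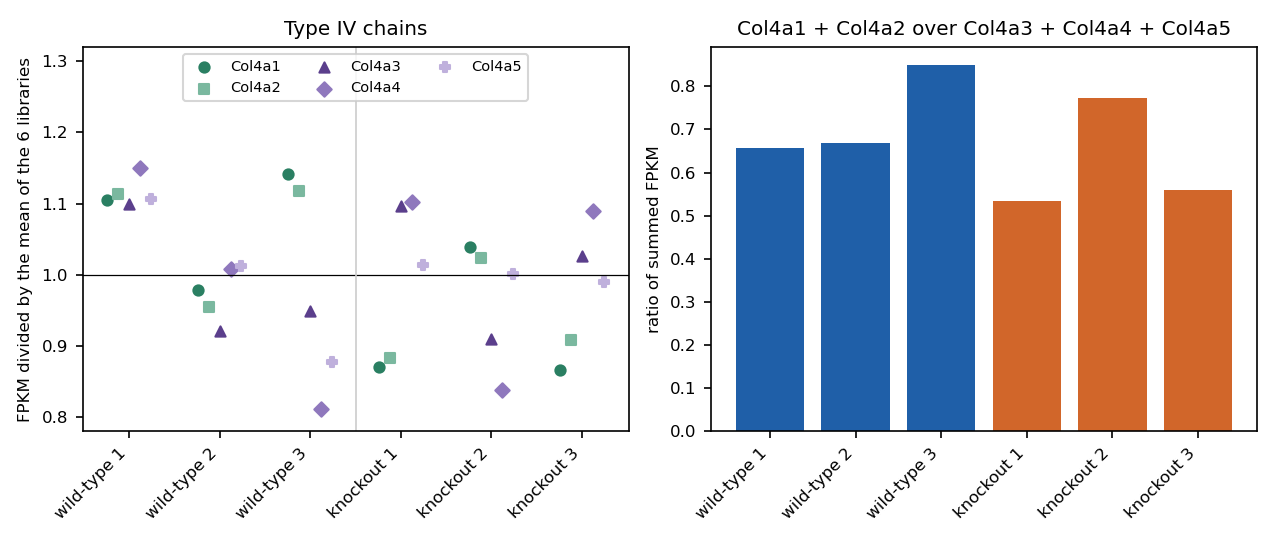
Left, FPKM of each type IV chain divided by its mean over the 6 libraries, with 1 symbol per gene and no link between libraries. Right, bars from 0 of the summed FPKM of Col4a1 and Col4a2 over that of Col4a3, Col4a4 and Col4a5, from 0.533 in knockout replicate 1 to 0.849 in wild-type replicate 3. Both α1 and α2 symbols lie above all of the α3, α4 and α5 symbols in wild-type replicate 3 and knockout replicate 2, and below all of them in knockout replicates 1 and 3.

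Neither proteoglycan collagen passed the test (limma adjusted p of 0.984 for Col18a1 and 0.973 for Col15a1). Col18a1 (chromosome 10, 77052178 to 77166530) had 31.1, 30.2 and 33.5 FPKM across wild-type libraries against 27.8, 30.1 and 27.3 across knockout libraries. The groups did not overlap, although knockout replicate 2 lay only 0.0406 FPKM below wild-type replicate 2. Its log2 fold change was -0.15 (SE 0.0847). Col15a1 (chromosome 4, 47207655 to 47313167) had 3.88, 3.38 and 4.45 FPKM across wild-type libraries against 2.74, 3.55 and 3.02 across knockout libraries, with a log2 fold change of -0.26 (SE 0.117). Its groups overlapped through knockout replicate 2.

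Outside both classes, the gene with the smallest p was Col14a1 (chromosome 15, 55307644 to 55520803), a collagen that binds the surface of type I fibrils through their proteoglycans. It had 6.45, 6.15 and 7.90 FPKM across wild-type libraries against 5.07, 4.37 and 3.66 across knockout libraries. Every knockout value lay below every wild-type value, and knockout replicate 2 was not raised here. The means were 6.83 ± 0.938 and 4.37 ± 0.703 FPKM (SD, n = 3). The log2 fold change was -0.55 (SE 0.128), and the limma adjusted p was 0.866. Col14a1 ranked 32 of the 12174 genes by p, the highest rank of a collagen gene. The exact permutation test gave p = 0.1, its minimum. Across the alternatives its log2 fold change lay between -0.64 and -0.45. Col16a1, of the same family of collagens that associate with fibrils, had 4.39 to 5.84 FPKM among wild-type against 3.66 to 5.17 among knockout kidneys, which overlapped.

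Type VI collagen forms the beaded filament that links cells to the matrix around them, and none of its 4 tested chains passed. Col6a1 (chromosome 10, 76708792 to 76726044) had 4.34, 4.24 and 5.94 FPKM across wild-type libraries against 3.27, 3.69 and 3.31 across knockout libraries. Col6a3 (chromosome 1, 90766860 to 90844001) had 1.91, 2.41 and 2.75 FPKM across wild-type libraries against 1.47, 1.66 and 1.42 across knockout libraries. Col6a2 (chromosome 10, 76595756 to 76623630), next to Col6a1, had 2.29, 2.41 and 3.66 FPKM across wild-type libraries against 2.18, 2.23 and 1.98 across knockout libraries. In all 3 genes the groups did not overlap, and the gap was narrow for Col6a2. Log2 fold changes were -0.39, -0.41 and -0.26 for Col6a1, Col6a3 and Col6a2, with standard errors of 0.124, 0.117 and 0.141 and limma adjusted p of 0.914, 0.866 and 0.973. The Col6a2 value was -0.10 without wild-type replicate 3. Exact permutation tests gave p = 0.1 for each. Col6a6, an alternative chain to Col6a3, had 2.41, 1.29 and 0.896 FPKM across wild-type libraries against 0.857, 1.22 and 0.563 across knockout libraries, with wild-type replicate 1 far above the other 5. Without that library its log2 fold change was -0.16, against -0.40 with it.

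Col8a1, Col26a1 and Col27a1 were the remaining members tested. Col8a1, a short-chain collagen of vessel walls, had 2.10, 1.31 and 0.878 FPKM across wild-type libraries against 1.51, 0.851 and 0.80 across knockout libraries. Its log2 fold change was -0.23 with all libraries and -0.04 without wild-type replicate 1. Col27a1 (chromosome 4, 63214009 to 63334991), a minor fibrillar collagen known from cartilage, was the most abundant gene outside the basement membrane class. It had 15.4, 18.7 and 22.8 FPKM across wild-type libraries against 20.4, 14.7 and 17.8 across knockout libraries, and its groups overlapped. Its log2 fold change was -0.10 (SE 0.16) and turned to 0.04 without wild-type replicate 3. Col26a1 had 1.19 to 1.54 FPKM among wild-type against 1.09 to 1.48 among knockout kidneys.

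The other 23 members had a mean under 1 FPKM and were not tested. Of these, 6 had a mean of 0.5 to 1 FPKM, among them Col7a1, the anchoring fibril collagen, at 0.795 FPKM and Col12a1, a fibril-associated collagen of dense tissue, at 0.635 FPKM. A further 7 had a mean of 0.1 to 0.5 FPKM, among them Col4a6 and Col11a2, and 10 lay under 0.1 FPKM. Among genes of cartilage collagens, Col2a1 and Col11a1 had a mean of 0.0049 and 0.00963 FPKM, and Col9a1 was listed at 0 in all 6 libraries. The knockout mean was lower than the wild-type mean for 12 of the 23 and higher for 10. With no filter, all members with a value above 0 included, the median log2 fold change was -0.09 for the collagen genes, -0.26 for fibrillar, -0.07 for basement membrane and -0.05 for other types, beside -0.01 for all genes.

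Libraries within a group also differed, and wild-type replicate 3 was the highest for most collagen genes. All 21 tested collagen genes had their highest value in a wild-type library, against 63.8% of all tested genes. For 15 it was wild-type replicate 3, which was the highest library for 30.2% of all tested genes, and for the other 6 it was wild-type replicate 1. The lowest value was in knockout replicate 1 for 8 genes, in knockout replicate 3 for 8, in knockout replicate 2 for 3 and in wild-type replicate 3 for 2. Without wild-type replicate 3, 18 of the 21 log2 fold changes were still below 0, now with 7 of the 9 other types and 6 of the 7 basement membrane genes. The median over the 21 was then -0.16. Every knockout value then lay below every wild-type value for 8 of the 21, against 14.5% of all tested genes. Without knockout replicate 2 this held for 14 of the 21, against 23.9% of all genes. With wild-type replicate 3 and knockout replicate 2 both left out it held for 14 of 21, against 31.5%.

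Markers of the cells that make collagen were highest in the same library. Values are summed FPKM of each list, given as the range in each group, and no listed marker was at 0 in all 6 libraries. Counts below 0 stand beside 64.9% of all tested genes. Fibroblast and pericyte markers (14 listed, 12 tested) summed to 148 to 204 FPKM among wild-type against 143 to 165 among knockout kidneys, with 11 log2 fold changes below 0 and a median of -0.17. Smooth muscle markers (8 listed, 5 tested) summed to 42.3 to 72.2 FPKM among wild-type against 43.2 to 51.0 among knockout kidneys, with 5 below 0 and a median of -0.10. Endothelial markers (14 listed and tested) summed to 175 to 243 FPKM among wild-type against 132 to 177 among knockout kidneys, with 14 below 0 and a median of -0.34. Podocyte markers (10 listed and tested), of the cells that make the glomerular type IV trimer, summed to 90.4 to 129 FPKM among wild-type against 77.8 to 103 among knockout kidneys, with 8 below 0 and a median of -0.24. Wild-type replicate 3 was the highest library for each of these 4 lists. No member of them passed over all genes. Knockout values all lay below wild-type values for 8 endothelial markers, for 1 fibroblast and pericyte marker (Dcn), and for 0 of the other 2 lists. This held for 8.57% of all tested genes. At an unadjusted limma p under 0.05, 11 endothelial, 1 fibroblast and pericyte, 0 smooth muscle and 1 podocyte marker were lower, against 4.21% of all tested genes. Mean log2(FPKM + 1) relative to the 6 libraries was also compared. Podocyte markers stood at -0.13, 0.13 and 0.27 across wild-type libraries against 0.09, -0.12 and -0.23 across knockout libraries. The type IV chains α3, α4 and α5 stood at 0.16, -0.02 and -0.17 against 0.10, -0.12 and 0.05. Which cells these chain transcripts came from was not tested. In bulk tissue fewer cells of a type and less RNA per cell cannot be told apart. The part of the 4 marker lists in the collagen differences was not tested.

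Other marker lists were summed in the same way. Tubule markers (12 listed and tested) had 5 log2 fold changes below 0 and a median of 0.02. Immune cell markers (11 listed, 7 tested) summed to 59.5 to 79.9 FPKM among wild-type against 49.0 to 86.9 among knockout kidneys, highest in knockout replicate 2, with 6 below 0 and a median of -0.08. Adipocyte markers (7 listed, 2 tested) summed to 45.5 to 71.6 FPKM among wild-type against 33.1 to 44.3 among knockout kidneys. Both tested members were below 0, with a median of -0.46, and the highest sum was in wild-type replicate 3. Most of the sum was Car3, at 43.6, 43.7 and 50.4 FPKM across wild-type libraries against 40.4, 30.9 and 31.4 across knockout libraries. Cfd, the other tested member, had 1.27, 2.25 and 15.1 FPKM against 2.64, 1.40 and 3.79, with overlap. The groups also overlapped for the untested members Adipoq, Plin1, Lep, Cidec and Retn, so only Car3 of this list stood apart. Adipoq had 0.192, 0.388 and 2.30 FPKM across wild-type libraries against 0.546, 0.166 and 0.719 across knockout libraries. Urothelial markers (5 listed, 0 tested) summed to 1.16 to 4.99 FPKM among wild-type against 0.835 to 6.28 among knockout kidneys. Red cell transcripts (5 listed, 4 tested) summed to 43.3 to 53.4 FPKM among wild-type against 69.4 to 545 among knockout kidneys, with 4 above 0 and a median of 2.29. Within the knockout the sum was 413 and 545 FPKM in replicates 1 and 3, each the lowest library for 8 collagen genes, and 69.4 FPKM in replicate 2. None of these members passed over all genes, and their part in the collagen differences was not tested.

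**Figure D4:**
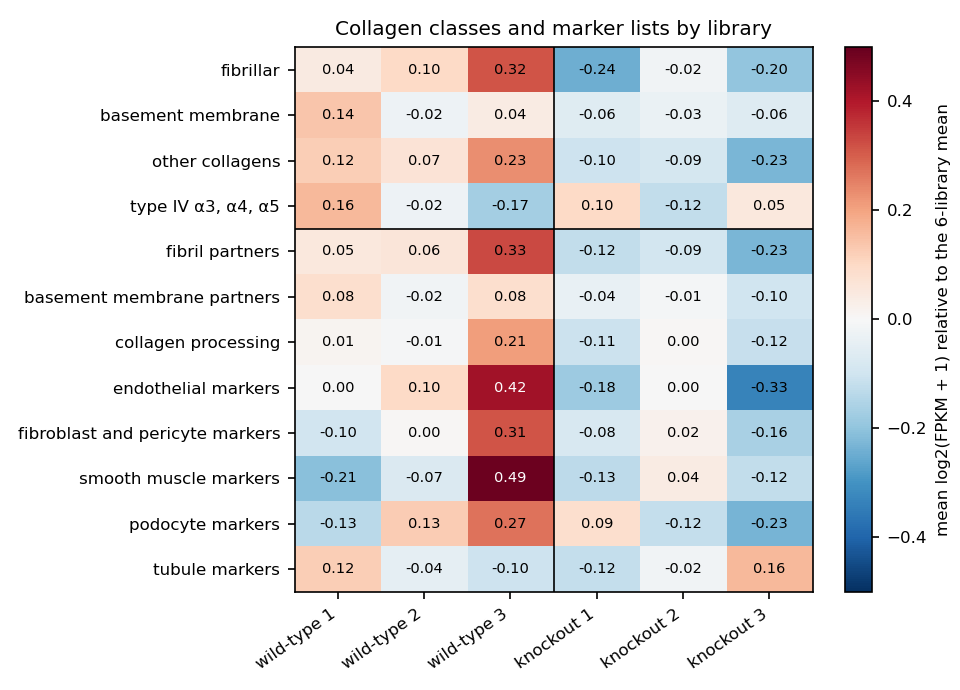
Mean log2(FPKM + 1) of each list's tested genes in each library relative to its mean over the 6 libraries, from blue (lower) to red (higher), with collagen classes above the line and other lists below it. Wild-type replicate 3 is the highest library for the fibrillar class (0.32), the other types (0.23) and the endothelial (0.42) and smooth muscle (0.49) markers, and the lowest for the type IV chains α3, α4 and α5 (-0.17).

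Genes that act on collagen were tested in the same fit, and none of the members of the 6 lists passed over all genes. Proteins that coat or bind fibrils (14 listed, 11 tested) had 11 log2 fold changes below 0, a median of -0.26 and 2 genes without overlap. Of all tested genes, 64.9% lay below 0 and 8.57% stood lower without overlap, and the counts of each list are read against these shares. Decorin, encoded by Dcn, is the small proteoglycan that spaces type I fibrils, and it had 16.1, 17.7 and 22.7 FPKM across wild-type libraries against 15.8, 14.3 and 13.2 across knockout libraries. Every knockout value of Dcn lay below every wild-type value, with a log2 fold change of -0.35. Dcn and the untested Lum were also listed among the fibroblast and pericyte markers, so these lists are not independent. Thbs1, encoding thrombospondin 1, had 12.1 ± 0.838 FPKM as its wild-type mean against 8.88 ± 1.49 in the knockout (SD, n = 3), without overlap. Ogn, the proteoglycan osteoglycin, had 8.94 ± 1.29 FPKM as its wild-type mean against 6.4 ± 1.33 in the knockout, with overlap. Basement membrane partners (20 listed, 17 tested) had 12 below 0, a median of -0.11 and 2 genes without overlap, both near the shares of all genes. Nid1, encoding nidogen 1, which bridges laminin and type IV collagen, had 8.26, 7.10 and 8.29 FPKM across wild-type libraries against 5.98, 6.03 and 5.07 across knockout libraries. The Nid1 groups stood apart, with a log2 fold change of -0.41, a standard error of 0.0998 and a limma adjusted p of 0.866. Hspg2, encoding perlecan, had 4.98 ± 0.148 FPKM as its wild-type mean against 4.18 ± 0.246 in the knockout, without overlap, and Egflam had a log2 fold change of -0.26.

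Enzymes and chaperones of collagen assembly (34 listed, 24 tested) had 19 log2 fold changes below 0 and a median of -0.13. Of these genes 4 stood lower without overlap, against 8.57% of all tested genes. Sparc, a collagen-binding matrix protein, had 46.8, 45.5 and 63.4 FPKM across wild-type libraries against 38.2, 43.5 and 34.7 across knockout libraries, without overlap. Bmp1, the protease that trims procollagen C-propeptides, had a log2 fold change of -0.36, and Loxl2, a lysyl oxidase of cross-linking, had -0.22. Serpinh1, which encodes the collagen chaperone HSP47 and was chosen after its values were seen, had 37.4, 37.4 and 66.0 FPKM across wild-type libraries against 29.5, 37.5 and 31.7 across knockout libraries. Wild-type replicate 3 stood far above the other 5 libraries for Serpinh1, and the groups overlapped. Collagen breakdown genes (19 listed, 8 tested) had 6 below 0 and a median of -0.17. Among them 3 stood lower without overlap, against 8.57% of all tested genes. These were the protease genes Mmp2, Mmp14 and Ctsk, with log2 fold changes of -0.23, -0.28 and -0.35. Collagen receptors (12 listed, 5 tested) had 5 below 0, a median of -0.05 and 0 without overlap, and Mrc2, Ddr2 and Ddr1 had log2 fold changes of -0.23, -0.08 and -0.05. Genes of TGF-beta signalling, the main inducer of fibrillar collagen genes (18 listed, 15 tested), had 12 below 0 and a median of -0.16. Of these genes 4 stood lower without overlap, against 8.57% of all tested genes. Among them Ccn2, a matricellular growth factor and TGF-beta target, had 28.5, 34.6 and 50.6 FPKM across wild-type libraries against 19.3, 23.9 and 24.98 across knockout libraries. Its log2 fold change was -0.68 (SE 0.197) and a limma adjusted p of 0.866, and Tgfbi and Ltbp4 had -0.29 and -0.28.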

How the data were processed

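Kidney RNA of 6 mouse samples, 3 wild-type and 3 Hspa8 knockout, was analysed from 1 table in which the authors deposited FPKM per gene and library. The genome builds are GRCm38 and mm10, the same assembly, per the submitters' processing notes. No label names an aligner, quantifier or annotation (not given in the sources used here). Groups follow the genotype label. The knockout columns, named A8, were matched to the HSPA8KO titles of the same number. No whole reads could be recovered (the commonest ratio between libraries of values under 0.1 FPKM held 0.625% of genes), so depth is unknown.

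The test was that of limma 3.58.1 (R 4.3.3) on log2(FPKM + 1), fitted on genotype alone with trended empirical Bayes variances, two-sided, with Benjamini-Hochberg adjustment at 0.05 over 12174 genes with a mean of at least 1 FPKM. The fit was tested on simulated data. Single genes were also given an exact permutation test over samples. Coordinates (1-based, whole gene) are from RefSeq GRCm38.p6, which held all 44 members, and strand and exon overlaps from GENCODE M21 on the same assembly. Named genes are the collagen genes, Hspa8, and of each list of related genes the 3 with the smallest p. Members and lists were chosen with earlier results of these data known. Alternatives were other pseudocounts, filters, scalings, a robust variance, the replicate number as a block and left-out libraries. In addition, the fibrillar and other medians were taken with types 2, 11, 24 and 27 counted as fibrillar. The counts of genes below 0 and without overlap under scalings and left-out libraries were added after seeing the data. Figures were drawn with matplotlib 3.10.9.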

Additional observations from a re-analysis of the deposited data

How the results depend on the processing

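No collagen gene passed under any of the 16 alternatives, and the class medians stayed below 0 in all of them. Over all genes 0 passed in 14 alternatives and 5 passed without knockout replicate 2 and with wild-type replicate 3 and knockout replicate 2 both left out. The collagen median was -0.32 with a pseudocount of 0.1, -0.089 with no filter and -0.15 with a filter at a mean of 5 FPKM. The basement membrane median was -0.069 with no filter and -0.069 with the filter at 5 FPKM, and that of other types -0.38 with a pseudocount of 0.1 and -0.051 with no filter. With 1 library left out in turn, genes called ran from 0 to 5, and medians from -0.28 to -0.16 for all collagen genes, from -0.45 to -0.18 for fibrillar, from -0.19 to -0.11 for basement membrane and from -0.37 to -0.22 for other types. The count of collagen genes with every knockout value below every wild-type value ran from 7 to 14 with 1 library left out. It was highest without knockout replicate 2. The share of all genes, counted in the same way, ran from 11.7% to 23.9%, highest in the same setting. With wild-type replicate 3 and knockout replicate 2 both left out the count was 14, against 31.5% of all genes. The count of collagen genes below 0 ran from 16 to 19.

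Of the 21 genes 15 had the same direction in every alternative run, and signs turned for the other 6, all with small differences. With 1 library left out in turn, log2 fold changes ran from -0.0303 to 0.106 for Col4a3, from -0.102 to 0.157 for Col4a4, from -0.0715 to 0.0779 for Col4a5, from -0.144 to 0.00044 for Col5a2, from -0.0883 to 0.0345 for Col26a1 and from -0.232 to 0.0365 for Col27a1. With wild-type replicate 3 and knockout replicate 2 both left out, Col4a5 was at -0.0712 and Col27a1 at 0.154, and with quantiles equalised Col26a1 was at 0.0169. The filters change which genes are counted, and the other causes were not tested.

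In a fit blocked on the replicate number, 0 genes passed over all genes and 0 collagen genes passed, and the medians were -0.21, -0.31, -0.15 and -0.26 as without it. Between samples of the same number, deviations from the group means correlated at 0.31, -0.21 and -0.32 for numbers 1, 2 and 3. With 3 libraries per group these values cannot show whether such samples shared a batch, which was not tested. FPKM keep no depth, so low values such as those of Col6a6 and Col8a1 carry an unknown counting error.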

Other observations

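Within the wild-type group some of the tested collagen genes took opposite orders over the 3 libraries. Others, among them Col4a1, Col14a1 and Col18a1, took neither of the orders given next. The share of all tested genes with each order was not counted. Col1a1, Col1a2, Col3a1, Col6a2, Col6a3, Col26a1 and Col27a1 were lowest in replicate 1 and highest in replicate 3, while Col4a4, Col4a5, Col5a2, Col6a6 and Col8a1 were highest in replicate 1 and lowest in replicate 3. Col6a6 and Col8a1 had the widest spread of the tested members there, with coefficients of variation of 51.3% and 43.4% (n = 3), against 5.39% for Col18a1. These are values of 3 samples, chosen after they were seen and with no test.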
